A study of Mus musculus with 3 samples.

Results

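Kupffer cells of 1 mouse fed an ethanol diet for 10 days were compared with Kupffer cells of 1 mouse fed chow. They were chosen by rule: a barcode (the label of 1 droplet) counted as a Kupffer cell when it had at least 1000 UMIs (unique molecular identifiers, 1 per captured RNA molecule), at least 300 genes, at most 10% of UMIs from mitochondrially encoded genes, and at least 1% of UMIs from Clec4f, Cd5l, C1qa, C1qb and C1qc together. The rule found 2537 cells in the chow library and 2724 in the 10-day library, 5261 of the 9081 Kupffer cells in the whole series. The mice were male and 8 weeks old. They received normal chow, or the Lieber-DeCarli liquid alcohol diet with 5% ethanol for 10 days, and a further mouse received that diet for 3 days. No genetic alteration is named for any of the groups. Livers were perfused with collagenase, and live non-parenchymal cells with high F4/80 and intermediate CD11b were sorted and sequenced with a droplet 3' kit. Each group was 1 mouse and 1 library, so no test between groups could be made. A difference due to ethanol cannot be told apart from one between mice, preparations, or chow and a liquid diet.

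Kupffer cells are macrophages that live inside the liver sinusoids. They clear old red cells and lipoproteins, remove microbial material that portal blood brings from the gut, present antigen, and answer microbial products with cytokines. Their identity is maintained by transcription factors that include LXR alpha (Nr1h3), a nuclear receptor activated by oxysterols. Chronic ethanol intake is known to load the liver with fat and to change how its macrophages respond to endotoxin.

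The chow cells were the deeper ones. A Kupffer cell held a median of 4675 UMIs in chow and 3080 UMIs at 10 days, and the summed Kupffer cells held 12534618 and 9130161 UMIs. Mitochondrially encoded genes made up a median of 5.23% of a cell's UMIs in chow and 6.42% at 10 days. The limit of 10% left out 202 barcodes with a Kupffer gene share of at least 1% in chow and 405 at 10 days. Gm42418, a gene that overlaps a ribosomal RNA locus, had 1613 CPM in chow and 3637 CPM at 10 days. Kupffer cells were 91.7% (exact binomial 95% interval 90.6% to 92.7%) of barcodes that passed the limits on UMIs, genes and mitochondrial share in chow, and 90.4% (89.3% to 91.4%) at 10 days. These intervals cover counting error within 1 library and carry nothing about the spread between mice. Few cells lay near the cut: 16 chow and 20 10-day cells had a Kupffer gene share from 1% to 1.2%, and 10 and 17 barcodes lay just outside it, from 0.8% to 1%. The 2 Kupffer sets shared 7 barcode sequences.

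All 14 Kupffer markers were present in both libraries, with a sum of 36946 CPM (UMIs of the summed cells scaled to a total of 1000000) in chow and 35156 CPM at 10 days. The 5 genes of the selection rule made up 24396 and 21315 CPM of these sums, so most of that level was fixed by how the cells were chosen. Adgre1, the F4/80 antigen of the sort, had 877 CPM in chow and 871 CPM at 10 days. The 8 markers used neither in the rule nor in the sort summed to 11673 CPM in chow and 12970.2 CPM at 10 days. Markers of other cells were present at low levels. The 24 T and NK markers summed to 321 CPM in chow and 225 CPM at 10 days, and the 18 endothelial markers to 312 and 333 CPM. The 30 hepatocyte markers summed to 1480.0 and 1559.9 CPM, of which Trf, which macrophages may also express, was 730.1 and 642 CPM. The 15 monocyte markers summed to 5741 and 4250.3 CPM, mostly Lyz2, a lysozyme of myeloid cells, with 4501 and 2838 CPM. The 15 B and plasma cell markers differed most by ratio, with 219.7 CPM in chow and 48.5 CPM at 10 days, and Igkc, the kappa light chain, had 97.3 CPM in chow and 7.89 CPM at 10 days. Camp, Ngp and Trem1 of the 13 neutrophil markers had no UMI in chow. The part of these other cells' transcripts in the results below was not tested, except where the values without mixed barcodes are given.

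Most genes differed little. Of 7536 genes with a mean of at least 10 CPM over both libraries, 71.6% had a 10-day level within 1.25-fold of chow, and the median log2 ratio (10 days over chow, 1 CPM added to both) was 0.07. A gene was counted as higher when its ratio of summed CPM exceeded 1.5, or as lower when it was under 1/1.5, with an exact 95% interval that excluded 1. By this rule 283 genes (3.76%) were higher and 177 (2.35%) were lower. With no fold limit, 60.2% of genes had a ratio above 1 and 39.8% below 1. When ratios were centred on their median the split turned round, with 195 genes higher and 291 lower, so higher genes went from 61.5% to 40.1% of all genes past the limits. A count of 0 allowed a level of up to 0.239 CPM in chow and 0.329 CPM at 10 days (3 counts). Counts of list members below are mostly given with their share of the measured members, to be read against 3.76% higher and 2.35% lower over all genes. The lists were chosen with results known, and in a short list 1 gene is a large share. Most ratios below are followed by this interval in brackets, which covers counting error only and carries nothing about the spread between mice.

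**Figure D1:**
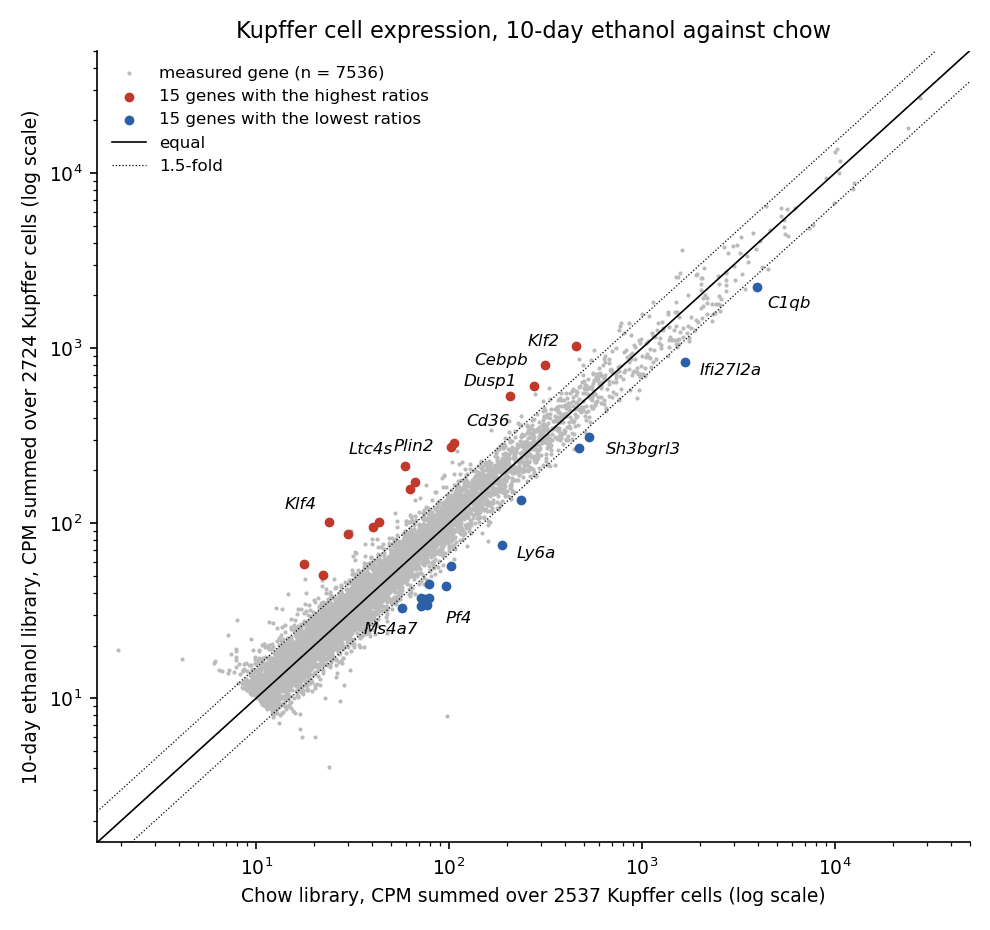
Summed CPM in the chow library (x, log scale) and in the 10-day ethanol library (y, log scale) for 7536 measured genes, 1 point a gene. The solid line marks equal levels and the dotted lines 1.5-fold, and the 15 highest and 15 lowest ratios chosen by rule are coloured. Most points lie between the dotted lines, while Klf4 lies at 23.8 CPM in chow and 102 CPM at 10 days and C1qb at 3937 and 2236 CPM.

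Genes were named by the size of their ratio among those with at least 50 CPM in 1 library. Mitochondrial, ribosomal protein and provisional genes and the markers of other cell types were left out, Nr4a1, Scd1, Gm42418 and Igkc for example. The 15 highest ratios that remained ran from 4.298 to 2.22. They belonged to Klf4, Ltc4s, Acot1, Rara, Cd36, Plin2, Nabp1, Rhob, Cebpb, Dhrs3, Ptgis, Ms4a8a, Klf2, Cdc42ep2 and Dusp1. The 15 lowest ran from 0.397 to 0.582 and belonged to Ly6a, Ms4a7, Adap2os, Tfrc, Pf4, Isg15, Ifi27l2a, Ifit3, Sdf2l1, C1qb, Dcxr, Gbp2, Irf7, D8Ertd738e and Sh3bgrl3. Isg15, Ifi27l2a, Ifit3, Gbp2 and Irf7 are interferon-induced genes. The 3-day library is set beside these values, but both comparisons use the same chow library and are not independent.

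**Figure D2:**
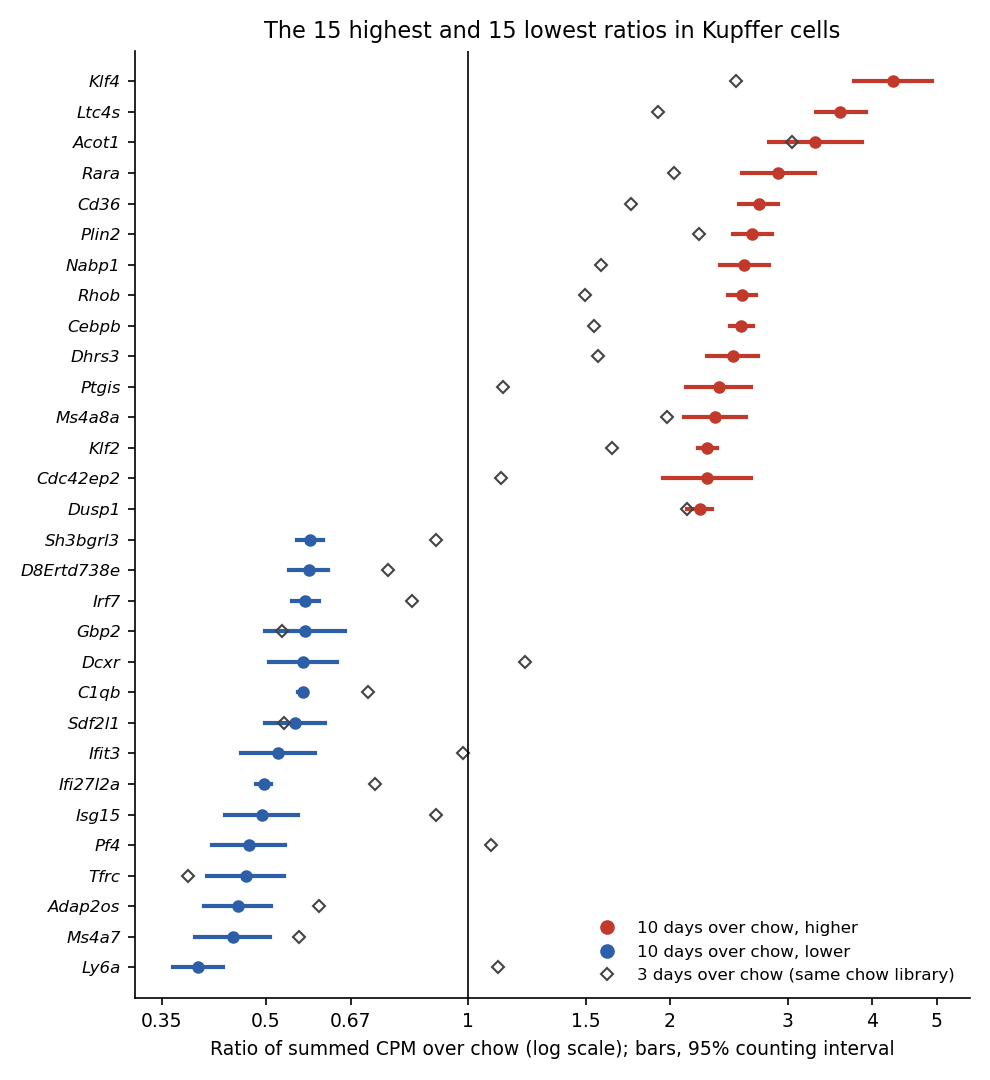
Ratio of summed CPM over chow (x, log scale) for the 30 genes with the highest and lowest 10-day ratios, with bars for the 95% counting interval. Diamonds give the 3-day ratio against the same chow library. Klf4 has the highest 10-day ratio at 4.30 and Ly6a the lowest at 0.397.

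Immediate-early genes are switched on within minutes of a stimulus and many encode transcription factors or their inhibitors. Of 28 measured members (of 40 on the list) 27 had a ratio above 1, 12 (42.9%) were higher past the limits and none was lower. Their median log2 ratio was 0.53, beside 0.07 over all measured genes. Klf4, a zinc-finger factor on chromosome 4 (55527143 to 55532466, minus strand, GRCm38), was at 23.8 CPM in chow, 59.8 CPM at 3 days and 102 CPM at 10 days. Its 10-day ratio over chow was 4.298 (3.77 to 4.91). Nr4a1, an orphan nuclear receptor, was at 31.03 CPM in chow, 53.1 CPM at 3 days and 90.3 CPM at 10 days, a ratio of 2.91 (2.57 to 3.29). Nr4a1 is also expressed in monocytes and is itself among the 15 monocyte markers. Without Lyz2 these markers summed to 1240.3 CPM in chow and 1412 CPM at 10 days in these cells. Part of that difference is Nr4a1 itself, so the sum is no separate measure of monocyte RNA. Klf4 and Nr4a1 were thus lowest in chow and highest at 10 days.

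Rhob, a small GTPase, was at 207 CPM in chow, 309 CPM at 3 days and 531 CPM at 10 days, a ratio of 2.57 (2.45 to 2.69). Cebpb, a leucine-zipper factor of macrophage activation, was at 315 CPM in chow, 484 CPM at 3 days and 804 CPM at 10 days, a ratio of 2.56 (2.46 to 2.66). Klf2, a factor that restrains inflammatory genes in macrophages, was at 454 CPM in chow, 745 CPM at 3 days and 1032 CPM at 10 days, a ratio of 2.27 (2.2 to 2.35). These 3 genes also followed the order chow, 3 days, 10 days. Dusp1, the phosphatase that switches off MAP kinases, was at 274 CPM in chow, 582 CPM at 3 days and 608 CPM at 10 days. Dusp1 kept that order too, but its 3-day and 10-day levels were close. The classic members Fos, Egr1 and Jun, with ratios of 1.23, 1.46 and 1.11, stayed within 1.5-fold of chow at 10 days, and Fos and Egr1 were highest at 3 days, with 319.6 and 52.9 CPM. The only member with a ratio under 1 was Mafk at 0.887 (0.715 to 1.097).

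Summed over the list, immediate-early genes held 4146 CPM in chow and 7140.3 CPM at 10 days in Kupffer cells. In T and NK barcodes of the same libraries (143 in chow, 165 at 10 days) they held 3241 CPM in chow and 3609.7 CPM at 10 days. The chow T and NK barcodes also carried B and plasma cell markers, 17454 CPM against 169.7 CPM at 10 days. Immediate-early genes are known to be induced by enzymatic dissociation too, which all 3 livers underwent, and its part was not tested. The group's median was 0.56 when cells with over 5% mitochondrial UMIs were left out (1098 chow and 384 10-day cells remained), with 12 members higher.

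Macrophage lineage transcription factors partly overlap that list. Of 36 measured members 6 (16.7%) were higher, none was lower and the median log2 ratio was 0.21. Besides Klf4, Cebpb and Klf2 these were Bhlhe40, Ets2 and Nr1h3. Bhlhe40, a repressor of the helix-loop-helix family, was at 17.95 CPM in chow, 18.98 CPM at 3 days and 48.1 CPM at 10 days, a ratio of 2.68 (2.28 to 3.16), so its 3-day level was near that of chow. Nr1h3 (LXR alpha) was at 547 CPM in chow, 695 CPM at 3 days and 858 CPM at 10 days, a ratio of 1.57 (1.52 to 1.62). Creg1, the most abundant member, had a ratio of 1.15 (1.12 to 1.17), and Spic, a factor of red pulp and Kupffer macrophages, of 0.849 (0.778 to 0.926).

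Macrophages take up, store and oxidise fatty acids. Of 31 measured genes of these processes (of 45), 8 (25.8%) were higher, 1 (3.23%) was lower, 8 had a ratio below 1 and the median log2 ratio was 0.30. Cd36, the fatty acid and scavenger receptor, was at 106 CPM in chow, 186 CPM at 3 days and 288 CPM at 10 days, a ratio of 2.71 (2.54 to 2.901). Plin2, which coats lipid droplets, was at 103 CPM in chow, 227 CPM at 3 days and 273 CPM at 10 days, a ratio of 2.66 (2.48 to 2.84). Acot1, an acyl-CoA thioesterase, was at 17.7 CPM in chow, 53.9 CPM at 3 days and 58.3 CPM at 10 days, a ratio of 3.29 (2.81 to 3.87). Its close copy Acot2 had a ratio of 1.84 (1.58 to 2.15). How reads shared by near copies were counted is not given in the sources used here, so the split between this pair is uncertain. All 4 genes were lowest in chow.

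Cpt1a, which brings fatty acids into mitochondria, had 85.2 CPM in chow and 151 CPM at 10 days, a ratio of 1.78 (1.64 to 1.93). Lpl, the lipase that frees fatty acids from lipoproteins and the most abundant member, had 1492 CPM in chow and 2548 CPM at 10 days, a ratio of 1.71 (1.68 to 1.74). Hilpda, an inhibitor of droplet lipolysis, and Etfdh, an electron carrier of fatty acid oxidation, had ratios of 1.57 and 1.68 at levels under 25 CPM. Several oxidation enzymes lay on the other side: Eci1 at 0.617 (0.478 to 0.792), the lower call, Hadha at 0.809 (0.712 to 0.918) and Ech1 at 0.8398 (0.719 to 0.979). The oxidation enzymes thus lay on both sides of chow.

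LXR targets carry cholesterol out of macrophages and drive fatty acid desaturation. Of 20 measured members 16 had a ratio above 1, 6 (30.%) were higher, none was lower and the median log2 ratio was 0.40. Scd1, a stearoyl-CoA desaturase also abundant in hepatocytes, was at 109 CPM in chow, 138 CPM at 3 days and 260.0 CPM at 10 days, a ratio of 2.38 (2.22 to 2.54). Abca1, the cholesterol efflux pump, was at 229 CPM in chow, 355 CPM at 3 days and 371 CPM at 10 days, a ratio of 1.62 (1.54 to 1.71), and Abcg1, its partner, had a ratio of 1.43 (1.35 to 1.51). Scd2, Lpl, Nr1h3 and Tlr4 made up the rest of the 6. The list's most abundant members went the other way. Apoe, the apolipoprotein of macrophages, was at 12504 CPM in chow, 11587 CPM at 3 days and 8804 CPM at 10 days, a ratio of 0.704 (0.698 to 0.7101), and Apoc1 had a ratio of 0.8097 (0.7998 to 0.8197). The list's sum was lower, 22745 CPM in chow and 20342 CPM at 10 days, although its median was above 0.

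Cholesterol synthesis and uptake genes had no member past the limits among 12 measured, and a median log2 ratio of −0.12. Retinoid genes were few, with 7 of 25 measured, of which 2 (28.6%) were higher. Rara, a retinoic acid receptor, was at 30. CPM in chow, 60.9 CPM at 3 days and 87.1 CPM at 10 days, a ratio of 2.903 (2.56 to 3.29). Dhrs3, which reduces retinaldehyde to retinol, was at 63.03 CPM in chow, 98.4 CPM at 3 days and 156 CPM at 10 days, a ratio of 2.48 (2.27 to 2.71). The other 5 stayed inside the limits, with Tgm2, the most abundant, at 1.18 (1.13 to 1.23) and Rxra, the partner of the retinoic acid receptors, at 1.002 (0.952 to 1.05).

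Enzymes of eicosanoid synthesis moved in both directions, with 3 higher (18.8%), 2 lower (12.5%) and a median log2 ratio of 0.17 over 16 measured. Ltc4s, which makes leukotriene C4, was at 59.04 CPM in chow, 114 CPM at 3 days and 212 CPM at 10 days, a ratio of 3.59 (3.298 to 3.91). Ptgis, the prostacyclin synthase, was at 40.4 CPM in chow, 45.5 CPM at 3 days and 95.5 CPM at 10 days, a ratio of 2.37 (2.12 to 2.65), with a 3-day level near chow. Cyp4f18, which inactivates leukotriene B4, had a ratio of 1.56 (1.31 to 1.86). Hpgds, the haematopoietic prostaglandin D synthase, was lower with 78.4 CPM in chow and 45.8 CPM at 10 days, a ratio of 0.584 (0.519 to 0.655), as was Cbr1 at 0.629 (0.533 to 0.7396). Leukotriene C4 and prostacyclin synthase were thus higher where prostaglandin D synthase was lower.

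Kupffer cells recycle iron from red cells. Of 21 measured haem and iron genes 9 had a ratio above 1 and 12 below 1. Hmox1, which breaks down haem, was at 1569 CPM in chow, 2414 CPM at 3 days and 2697 CPM at 10 days, a ratio of 1.72 (1.69 to 1.75). Slc40a1, the iron exporter, was at 3255 CPM in chow, 4179 CPM at 3 days and 4299.7 CPM at 10 days, a ratio of 1.32 (1.303 to 1.34). Both were lowest in chow. The 3 lower members serve iron import and storage: Tfrc, the transferrin receptor, was at 71.8 CPM in chow, 27.5 CPM at 3 days and 33.5 CPM at 10 days, a ratio of 0.467 (0.409 to 0.532), and the ferritin chains Fth1 and Ftl1 had ratios of 0.654 (0.646 to 0.661) and 0.662 (0.656 to 0.668). Over the 21 members 1 (4.76%) was higher, 3 (14.3%) were lower and the median log2 ratio was −0.16, which turned to 0.05 with no CPM minimum. Slc40a1 did not pass the limits. Fth1 and Ftl1 transcripts are short, and the classes of transcripts under 600 bases and of 600 to 1000 bases had median log2 ratios of −0.08 and −0.07.

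MHC class II molecules present antigen to CD4 T cells. Of 9 measured members 8 had a ratio below 1 and 4 (44.4%) were lower past the limits, with a median log2 ratio of −0.53. Cd74, the invariant chain, was at 7375 CPM in chow, 5412 CPM at 3 days and 4826 CPM at 10 days, a ratio of 0.654 (0.647 to 0.662). H2-Ab1 was at 2392 CPM in chow, 1688 CPM at 3 days and 1591 CPM at 10 days, a ratio of 0.665 (0.652 to 0.678), and H2-Eb1 had a ratio of 0.653 (0.638 to 0.669). Ciita, the factor that switches these genes on, was at 15.1 CPM in chow and 8.76 CPM at 10 days, a ratio of 0.581 (0.442 to 0.759). In the 3-day library the levels of all 4 also lay below chow. The member above 1 was Ifi30, a lysosomal thiol reductase, at 1.08 (1.04 to 1.12).

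These class II ratios lie close to the limit, so the count depended on the choice of cells. It was 5 with a Kupffer gene share of at least 2%, 2 after subtraction of free RNA, 1 without barcodes that carried 3 or more UMIs of another cell type's markers, and 0 with a mitochondrial limit of 5%. The median stayed below 0 in each of these, from −0.61 to −0.28. B cells also express class II genes, and class II genes summed to 15662 CPM in chow and 8303 CPM at 10 days in barcodes with 10 to 100 UMIs, which carry free RNA.

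MHC class I molecules present peptides made by the immunoproteasome. Of 21 measured genes 5 (23.8%) were lower, none was higher, 8 had a ratio above 1 and the median log2 ratio was −0.30. Tap1, the peptide transporter, was at 93.2 CPM in chow, 78.6 CPM at 3 days and 57.8 CPM at 10 days, a ratio of 0.621 (0.559 to 0.688). Psmb8, an immunoproteasome subunit, was at 328 CPM in chow, 225 CPM at 3 days and 214 CPM at 10 days, a ratio of 0.653 (0.619 to 0.689). The others were H2-T22, H2-Q4 and Nlrc5, the activator of class I genes, at 0.609, 0.612 and 0.6602. B2m, the common light chain, had a ratio of 0.695 (0.685 to 0.705), while H2-K1, a classical heavy chain, had 1.14 (1.12 to 1.16). Class I heavy chains are near copies of each other, so reads may have been split between them.

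Type I interferon response genes encode antiviral effectors and the factors that amplify the response. Of 56 measured members 41 had a ratio below 1, 12 (21.4%) were lower, 1 (1.79%) was higher and the median log2 ratio was −0.31. At 3 days the median against the same chow library was 0.10. Irf7, the master factor of the response, was at 469.7 CPM in chow, 388 CPM at 3 days and 269 CPM at 10 days, a ratio of 0.573 (0.547 to 0.601). Ifi27l2a, an abundant member, was at 1671 CPM in chow, 1217 CPM at 3 days and 830.0 CPM at 10 days, a ratio of 0.497 (0.484 to 0.5099). Isg15, a ubiquitin-like modifier on chromosome 4 (156199424 to 156200818, minus strand), was at 74.99 CPM in chow, 67.3 CPM at 3 days and 37.02 CPM at 10 days, a ratio of 0.494 (0.435 to 0.5596). Ifit3, an inhibitor of viral translation, was at 71.6 CPM in chow, 70.3 CPM at 3 days and 37.3 CPM at 10 days, a ratio of 0.522 (0.459 to 0.592). Isg15 and Ifit3 were thus near the chow level at 3 days and low at 10 days. Ifit3 has a near copy, Ifit3b. Ly6e, the most abundant member, stayed inside the limit at 0.737 (0.723 to 0.7504), and Ifi205 was the single higher member at 1.73 (1.57 to 1.904).

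Interferon gamma GTPases and related genes had 6 lower (23.1%) and none higher of 26 measured, with a median log2 ratio of −0.13. Gbp2, a guanylate-binding protein, was at 56.96 CPM in chow, 30.2 CPM at 3 days and 32.6 CPM at 10 days, a ratio of 0.573 (0.499 to 0.657). Iigp1 and Igtp, GTPases that attack vacuoles of intracellular microbes, had ratios of 0.594 (0.533 to 0.661) and 0.661 (0.559 to 0.778). Not all GTPases were lower, since Gbp2b had 1.43 (1.35 to 1.51). GBP genes are close copies and their ratios carry that uncertainty. Ly6a (Sca-1), on chromosome 15 (74994877 to 74998031, minus strand), had the lowest ratio of the 30 genes named by size, with 189 CPM in chow, 209 CPM at 3 days and 75.03 CPM at 10 days. Its ratio was 0.397 (0.364 to 0.432) over all cells and 0.674 with a mitochondrial limit of 5%.

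Promoters of 4 of the named genes are shown because they hold letters known from response elements: the interferon-stimulated response element in Isg15, Ifit3 and Gbp2, and the cAMP response element in Dusp1. The sequences are the 250 bases before the start site from RefSeq (GRCm38.p6), 5′ to 3′ on the gene's strand. Capitals mark every match, on either strand, to GAAANNGAAA in Isg15, Ifit3 and Gbp2 and to TGACGTCA in Dusp1.
Isg15, chr4:156200819-156201068, minus strand: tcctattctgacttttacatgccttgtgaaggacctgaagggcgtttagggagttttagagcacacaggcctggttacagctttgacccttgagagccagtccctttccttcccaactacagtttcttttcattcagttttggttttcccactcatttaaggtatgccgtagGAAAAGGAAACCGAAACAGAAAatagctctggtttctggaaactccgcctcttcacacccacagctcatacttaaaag
Ifit3, chr19:34583279-34583528, plus strand: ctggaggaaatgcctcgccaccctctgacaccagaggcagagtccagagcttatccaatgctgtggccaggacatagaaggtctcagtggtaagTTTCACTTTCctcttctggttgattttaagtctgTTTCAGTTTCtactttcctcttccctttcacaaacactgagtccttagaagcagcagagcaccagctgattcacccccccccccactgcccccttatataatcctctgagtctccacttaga
Gbp2, chr3:142620413-142620662, plus strand: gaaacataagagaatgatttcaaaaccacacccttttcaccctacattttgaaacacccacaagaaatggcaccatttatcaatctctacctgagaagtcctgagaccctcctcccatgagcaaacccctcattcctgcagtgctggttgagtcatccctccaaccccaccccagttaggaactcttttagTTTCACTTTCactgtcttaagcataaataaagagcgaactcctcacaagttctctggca
Dusp1, chr17:26508473-26508722, minus strand: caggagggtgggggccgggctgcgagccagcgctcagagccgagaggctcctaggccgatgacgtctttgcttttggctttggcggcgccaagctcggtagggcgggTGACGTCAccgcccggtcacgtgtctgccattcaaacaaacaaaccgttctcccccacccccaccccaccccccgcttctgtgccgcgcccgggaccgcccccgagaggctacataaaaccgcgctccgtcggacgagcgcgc
Isg15 held 3 overlapping matches, the nearest 56 bases before the start, Ifit3 held 2 and Gbp2 held 1. Over all 32851 promoter windows of this length, 2.98% held GAAANNGAAA and 1.55% held TGACGTCA. Promoters were found for 42 of the 56 measured type I interferon genes, and 17 of them held GAAANNGAAA. Among the 9 with a promoter that were past the limits in either direction, 4 held it. They were Ifit3, Isg15 and Oas1a, which were lower, and Ifi205, the single higher member. Of the 30 genes named by rule 26 had a promoter, and GAAANNGAAA was in 3 of 12 lower genes and in 1 of 14 higher genes, Dhrs3. Irf7 held no match in its window. A match describes letters only and does not show binding.

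**Figure D3:**
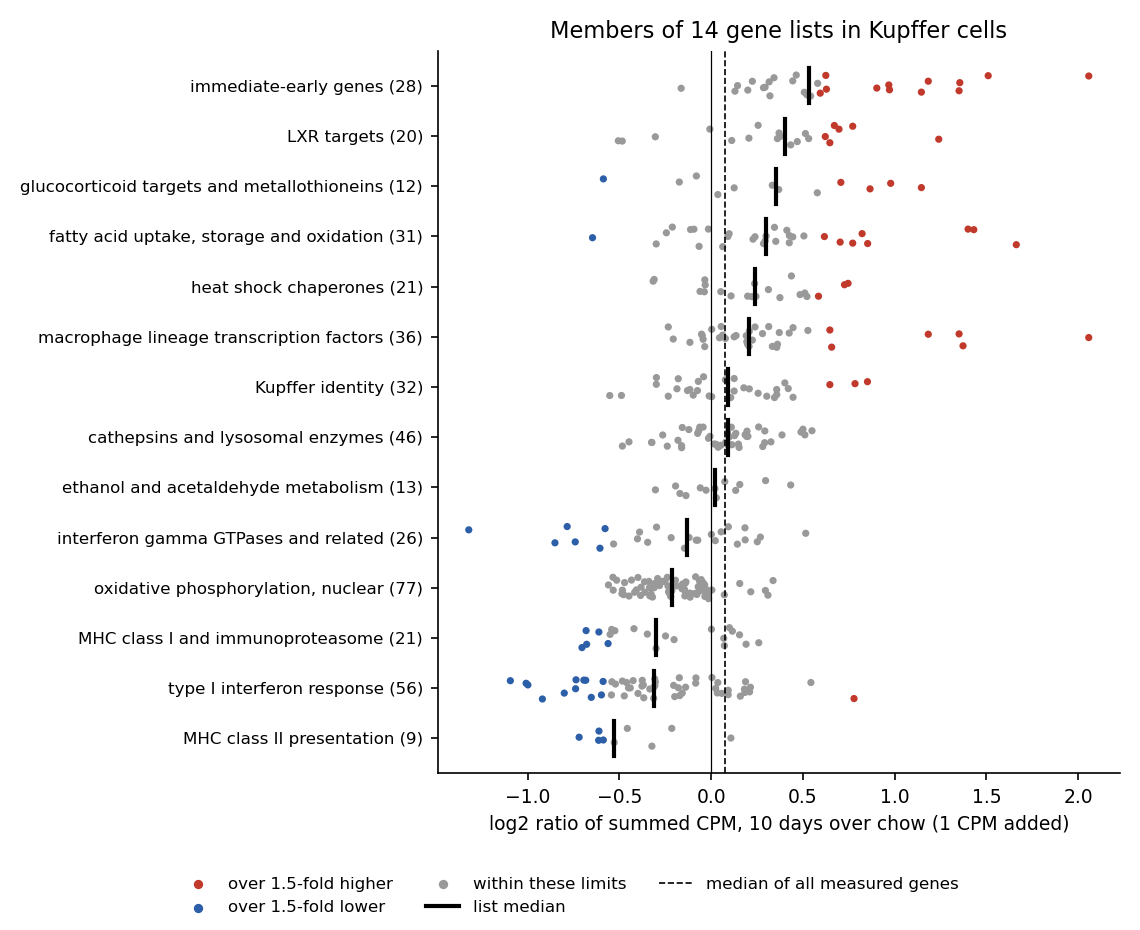
Log2 ratio of summed CPM, 10 days over chow, for each measured member of 14 gene lists (points, coloured when past the limits) with the list median (bar) and the median of all measured genes (dashed line). Numbers in brackets are measured members. Immediate-early genes have the highest median (0.53) and MHC class II genes the lowest (−0.53).

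Genes of Kupffer identity were close to chow as a group, with 3 of 32 measured members (9.38%) higher, none lower, and a median log2 ratio of 0.09. Clec4f, Cd5l and the C1q genes were used to choose the cells, so their levels are a description. Clec4f, a lectin found on Kupffer cells, was at 4071 CPM in chow, 4004 CPM at 3 days and 4078 CPM at 10 days, and Cd5l, a secreted scavenger protein, at 5263 CPM in chow, 5779.7 CPM at 3 days and 5705 CPM at 10 days. The 3 chains of C1q, the first component of complement, were unequal: the ratio was 0.908 for C1qc, 0.767 for C1qa and 0.568 for C1qb. C1qb was lower past the limits but is not among the 32 members counted above. It was at 3937 CPM in chow, 2801 CPM at 3 days and 2236 CPM at 10 days. Timd4, a phosphatidylserine receptor of long-lived Kupffer cells, was at 483 CPM in chow, 447 CPM at 3 days and 460.2 CPM at 10 days. The 3 higher members were Marco, Fabp7 and Nr1h3.

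Marco, a scavenger receptor for bacteria, was at 329 CPM in chow, 346 CPM at 3 days and 594 CPM at 10 days, a ratio of 1.81 (1.74 to 1.88). Fabp7, a fatty acid binding protein, was at 772 CPM in chow, 918 CPM at 3 days and 1331 CPM at 10 days, a ratio of 1.72 (1.68 to 1.77). For Marco the 3-day level lay near chow. Mrc1, the mannose receptor, was at 861 CPM in chow, 1325 CPM at 3 days and 1400.2 CPM at 10 days, a ratio of 1.63 (1.58 to 1.67). With Cd36 they were the 3 higher of 12 measured scavenger receptors (25.%, median log2 0.13), while Cd68 had 0.714 (0.6795 to 0.751). Among 11 measured C-type lectins Mrc1 was higher (9.09%) and Cd209f was lower (9.09%). Cd209f had 20.3 CPM in chow and 6.02 CPM at 10 days, a ratio of 0.297 (0.218 to 0.399).

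Complement had 2 higher (13.3%) and 1 lower (6.67%) of 15 measured members (median log2 0.14). C3 and the C5a receptor C5ar1 had ratios of 1.73 (1.45 to 2.07) and 1.62 (1.47 to 1.79). Cfb, factor B of the alternative pathway, was at 30.8 CPM in chow and 14.5 CPM at 10 days, a ratio of 0.469 (0.382 to 0.574). Vsig4, the complement receptor of Kupffer cells and the list's most abundant member, was at 3233 CPM in chow, 3541 CPM at 3 days and 3482 CPM at 10 days. Fc receptors had 6 measured members, of which only Fcer1g (16.7%), the shared signalling chain, passed the limits with 0.648 (0.636 to 0.661). Fcgr1 had 0.717 (0.669 to 0.769) and Fcgrt, which recycles IgG, had 1.296 (1.24 to 1.36). Genes for uptake of dying cells had 1 higher of 17 (5.88%), the engulfment adaptor Elmo2 at 1.62 (1.46 to 1.81).

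Inflammatory cytokines and NF-kB genes differed little as a group. Of 34 measured members 2 (5.88%) were higher, 1 (2.94%) was lower and the median log2 ratio was 0.17. Il1b, the interleukin of the inflammasome, was at 296 CPM in chow, 362 CPM at 3 days and 268 CPM at 10 days, a ratio of 0.904 (0.858 to 0.951), and Il18 was at 47.5 CPM in chow, 55.6 CPM at 3 days and 27.5 CPM at 10 days, a ratio of 0.578 (0.497 to 0.671). Il6 had a ratio of 2.396 (1.86 to 3.103) at a low level, 7.82 CPM in chow and 18.7 CPM at 10 days. Nfkbia, the feedback inhibitor of NF-kB, had 1.35 (1.28 to 1.41), and Cd80, a costimulator, 1.82 (1.44 to 2.299).

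Chemokines and growth factors had 2 higher (11.8%) and 4 lower (23.5%) of 17 measured (median log2 −0.24). The 12 chemokines among them had 1 higher and 3 lower, beside 3.76% and 2.35% over all measured genes. Pdgfb, a growth factor for stellate cells, was at 32.4 CPM in chow, 49.1 CPM at 3 days and 68.02 CPM at 10 days, a ratio of 2.1 (1.85 to 2.39). Ccl4, which attracts lymphocytes, was at 39.7 CPM in chow, 63.5 CPM at 3 days and 81.2 CPM at 10 days, a ratio of 2.04 (1.82 to 2.29), and its neighbour Ccl3 had 1.43 (1.19 to 1.72). The monocyte attractants Ccl2 and Ccl7 were lower, at 0.605 (0.517 to 0.706) and 0.397 (0.293 to 0.53), as were Pf4 at 0.472 (0.416 to 0.534) and the growth factor Hbegf at 0.625 (0.507 to 0.767). Pf4 was at 78.9 CPM in chow, 85.6 CPM at 3 days and 37.2 CPM at 10 days, and its 10-day ratio was 0.791 with a mitochondrial limit of 5%. Ccl6, the most abundant chemokine of the list, was at 881 CPM in chow, 1848 CPM at 3 days and 1187 CPM at 10 days, so it was highest at 3 days.

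Genes that sense LPS and other Toll-like receptor ligands had 3 higher (9.68%) and none lower of 31 measured (median log2 0.09). Tlr4, the LPS receptor, was at 46.2 CPM in chow, 57.9 CPM at 3 days and 71.6 CPM at 10 days, a ratio of 1.55 (1.38 to 1.74). Its adaptor Ticam2 and the chaperone Hsp90b1 were the other two, at 1.55 (1.23 to 1.97) and 1.56 (1.52 to 1.597). Ly96, the LPS-binding partner of Tlr4, had 0.776 (0.704 to 0.856) and Irak3, an inhibitor of the pathway, 0.699 (0.564 to 0.864). Tlr4 and its partner Ly96 therefore lay on opposite sides of chow.

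Glucocorticoid targets and metallothioneins had 4 higher (33.3%) and 1 lower (8.33%) of 12 measured, with a median log2 ratio of 0.35 (0.78 at 3 days). Tsc22d3, a glucocorticoid-induced leucine zipper, was at 93.7 CPM in chow, 172 CPM at 3 days and 186 CPM at 10 days, a ratio of 1.98 (1.84 to 2.14). Fkbp5, another target, was lower, at 41.5 CPM in chow, 55.1 CPM at 3 days and 27.3 CPM at 10 days, a ratio of 0.657 (0.563 to 0.766). Cd163, the haemoglobin scavenger receptor, was at 543 CPM in chow, 1186 CPM at 3 days and 593 CPM at 10 days, and Mt1, a metallothionein, at 139.9 CPM in chow, 241 CPM at 3 days and 124 CPM at 10 days. The targets thus did not move together: Cd163, Fkbp5 and Mt1 were highest at 3 days.

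Adhesion genes and integrins had 2 higher of 26 measured (7.69%, median log2 0.11). Cd44, the hyaluronan receptor, was at 779.7 CPM in chow, 1009.6 CPM at 3 days and 1397 CPM at 10 days, a ratio of 1.79 (1.74 to 1.84), and Itga5, a fibronectin receptor chain, had 1.71 (1.34 to 2.18). Vcam1, an adhesion molecule for leukocytes, was at 317 CPM in chow, 969.9 CPM at 3 days and 249 CPM at 10 days, with a 10-day ratio of 0.784 (0.745 to 0.826), so its high 3-day level was not seen at 10 days. Cytokine receptors had 3 higher of 27 measured (11.1%), among them Cx3cr1 and Bmpr2 at 2.64 (1.99 to 3.53) and 1.51 (1.36 to 1.67). Cx3cr1, a chemokine receptor also carried by monocytes, was at 6.06 CPM in chow and 16.0 CPM at 10 days. Csf1r, the receptor for the growth factor that keeps macrophages alive, was at 2493 CPM in chow, 2243 CPM at 3 days and 2329.9 CPM at 10 days.

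Several genes named by rule lie outside the lists. Nabp1, which binds single-stranded DNA, was at 66.9 CPM in chow, 106 CPM at 3 days and 173 CPM at 10 days, a ratio of 2.58 (2.37 to 2.81). Cdc42ep2, an effector of the GTPase Cdc42, was at 22.3 CPM in chow, 24.9 CPM at 3 days and 50.6 CPM at 10 days, a ratio of 2.27 (1.96 to 2.65), with a 3-day level near chow. Dcxr, a dicarbonyl and xylulose reductase, was at 78.7 CPM in chow, 95.7 CPM at 3 days and 44.8 CPM at 10 days, a ratio of 0.569 (0.506 to 0.639). Dcxr was thus highest at 3 days and lowest at 10 days. Adap2os, annotated as antisense, was at 96.7 CPM in chow, 58.1 CPM at 3 days and 43.9 CPM at 10 days, a ratio of 0.454 (0.405 to 0.509); whether counting used the strand is not stated, so its reads and those of the opposite gene may not be separable. Sh3bgrl3 and D8Ertd738e, short abundant transcripts, had ratios of 0.582 (0.556 to 0.608) and 0.58 (0.542 to 0.62). Barcodes with 10 to 100 UMIs, which carry free RNA, had ratios on the same side of 1 for all 30 genes named by size. They ran from 1.17 (Cdc42ep2) to 3.92 (Klf4) for the 15 highest and from 0.379 (Gbp2) to 0.629 (Adap2os) for the 15 lowest. Clec4f was at 4441 CPM in such barcodes of chow and 3574 CPM in those of 10 days. They thus hold Kupffer RNA of the same libraries, and the shared direction is no separate support.

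The MS4A family of membrane proteins moved in both directions within 7 measured members. Ms4a8a was at 43.5 CPM in chow, 86.2 CPM at 3 days and 102 CPM at 10 days, a ratio of 2.34 (2.098 to 2.601). Ms4a7 was at 76.7 CPM in chow, 42.96 CPM at 3 days and 34.3 CPM at 10 days, a ratio of 0.447 (0.392 to 0.509). Ms4a4c and Ms4a6b were also lower, at 0.445 (0.348 to 0.565) and 0.606 (0.533 to 0.688). The median log2 ratio of the family was −0.51, with 1 member higher (14.3%) and 3 lower (42.9%).

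Heat shock chaperones, which refold damaged proteins, had 3 higher of 21 measured (14.3%, median log2 0.24): Hspa8, the abundant constitutive HSP70, at 1.66 (1.61 to 1.702), Dnaja1, its cochaperone, at 1.68 (1.57 to 1.798), and Chordc1 at 1.53 (1.28 to 1.82). Endoplasmic reticulum stress genes had 3 higher (9.38%) and 1 lower (3.12%) of 32 (median log2 0.18). Herpud1, of the degradation machinery, was at 53.9 CPM in chow and 103 CPM at 10 days, a ratio of 1.905 (1.72 to 2.11), Xbp1, a factor of the unfolded protein response, had 1.503 (1.42 to 1.59), and Sdf2l1, a luminal chaperone partner, was lower with 103 CPM in chow and 56.7 CPM at 10 days, a ratio of 0.553 (0.499 to 0.613). Hspa5 (BiP), the main sensor chaperone, had 1.12 (1.08 to 1.16). Of 29 measured apoptosis and p53 genes 3 (10.3%) were higher, Pmaip1 (NOXA), Cdkn1a (p21) and Bcl2l1, at 1.904, 1.71 and 1.61.

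Enzymes that metabolise ethanol and acetaldehyde had no member past the limits among 13 measured (median log2 0.02). Aldh2, the mitochondrial acetaldehyde dehydrogenase, was at 594 CPM in chow, 599 CPM at 3 days and 662 CPM at 10 days, a ratio of 1.11 (1.08 to 1.15). NRF2 and oxidative defence genes had 1 higher of 41 (2.44%, median log2 0.07), Txnip, an inhibitor of thioredoxin, at 474 CPM in chow, 861 CPM at 3 days and 870.0 CPM at 10 days and a ratio of 1.84 (1.77 to 1.899). Gpx1, glutathione peroxidase, had 1.26 (1.24 to 1.28). Hypoxia response genes had 3 higher of 16 (18.8%), Plin2 and Hilpda given above and P4ha2, a collagen prolyl hydroxylase subunit, at 2.16 (1.67 to 2.81). The counts for ethanol metabolism and oxidative defence were close to the share over all genes.

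Nuclear genes of oxidative phosphorylation and mitochondrial genes lay on opposite sides of chow. Of 77 measured nuclear members 70 had a ratio below 1, though none passed the limits, with a median log2 ratio of −0.22. All 13 mitochondrially encoded members had a ratio above 1, with a median log2 ratio of 0.39, and none passed the limits. The sum of the 13 was 51009.5 CPM in chow and 62625 CPM at 10 days, the same quantity that the limit of 10% of UMIs cuts per cell. In barcodes with 10 to 100 UMIs it was 97255 CPM in chow and 180094 CPM at 10 days, so it was higher at 10 days there too.

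Other housekeeping groups had few members past the limits or none, though some shares lay above those over all genes. Cathepsins and lysosomal enzymes had no member past the limits among 46 (median log2 0.09), with Ctsb, the most abundant, at 1.02 (1.01 to 1.03) and Psap, a saposin precursor, at 1.46 (1.45 to 1.48). Glycolysis genes had 1 higher of 17 (5.88%), the glucose transporter Slc2a6 at 2.33 (1.84 to 2.95), and Gapdh had 0.737 (0.703 to 0.772). Replication and mitosis genes had none past the limits among 25. D cyclins and cell-cycle brakes had 2 higher of 18 (11.1%), Cdkn1a and Myc. Actin and cytoskeleton genes had 3 higher (7.69%) and 2 lower (5.13%) of 39, with Actg1, cytoplasmic actin, at 1.67 (1.64 to 1.703). Tmsb4x, which binds actin monomers, was at 23989 CPM in chow and 18099.6 CPM at 10 days, a ratio of 0.755 (0.75 to 0.759).

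Cell by cell, the distributions of the gene lists overlapped between the libraries, and their centres differed for some lists but not for others. To compare cells of unequal depth each was thinned at random to 1000 UMIs. Immediate-early genes held a median of 4 UMIs per 1000 in chow cells (10th to 90th percentile 1 to 8.4) and 7 at 10 days (3 to 14), and 36.8% of 10-day cells lay above the 90th percentile of chow. MHC class II genes held a median of 16 (7 to 29) in chow and 11 (5 to 20) at 10 days, and 19.6% of 10-day cells lay below the 10th percentile of chow. Type I interferon genes held a median of 10 (6 to 15) in chow and 7 (4 to 12) at 10 days, and 27.5% of 10-day cells lay below the 10th percentile of chow. Kupffer identity genes held a median of 33 in both, with 24 and 24 at the 10th and 44 and 43 at the 90th percentile. LXR targets held medians of 20 and 19, and Apoe alone held medians of 10 and 7.

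**Figure D4:**
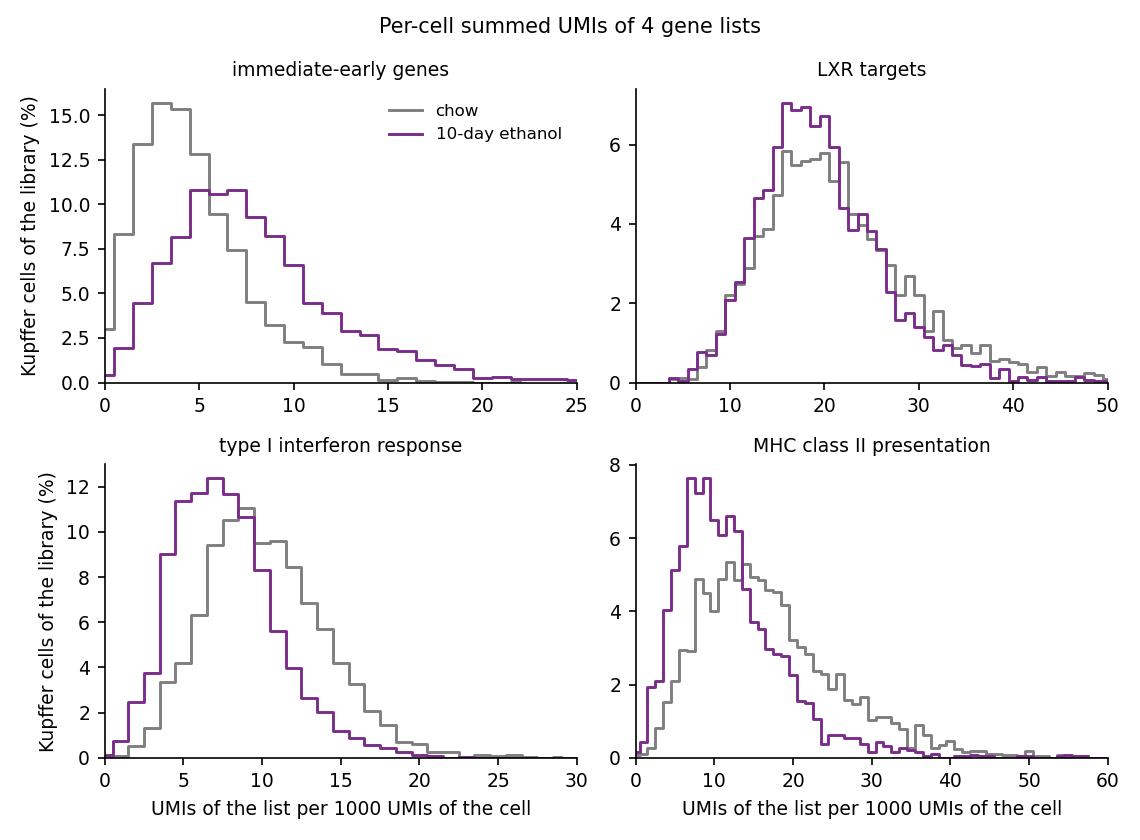
Distribution over Kupffer cells of summed UMIs of 4 gene lists after each cell was thinned to 1000 UMIs (x, UMIs per 1000; y, percent of the library's Kupffer cells). For immediate-early genes the 10-day curve lies to the right of chow, with medians of 7 and 4, and for type I interferon and MHC class II genes it lies to the left, with medians of 7 and 10 and of 11 and 16.

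Single genes were described by the share of cells with at least 1 UMI after thinning. The shares count UMIs of the same cells again, and some of the genes were chosen for their extreme ratios. They are therefore no separate support for the ratios. The intervals in brackets cover counting error over cells of 1 mouse a group and carry nothing about the spread between mice. Cd36 was found in 9.42% of cells in chow (8.31% to 10.6%) and 23.9% at 10 days (22.3% to 25.6%). Plin2 was found in 10.4% of cells in chow (9.21% to 11.6%) and 22.5% at 10 days (20.9% to 24.1%), and Ltc4s in 4.77% of cells in chow (3.97% to 5.67%) and 15.6% at 10 days (14.3% to 17.1%). Klf4 was found in 2.21% of cells in chow (1.67% to 2.86%) and 8.33% at 10 days (7.32% to 9.43%). In T and NK barcodes, which should lack Cd36, its thinned shares were 1.399% and 1.82%. The shares of Klf4 there were 2.797% and 1.21%, but other cells express this factor too, so they are no background for it. The T and NK barcodes had median depths of 3753 and 2472 UMIs. Unthinned, the Kupffer shares were 30.1% and 52.6% for Cd36 and 9.66% and 23.8% for Klf4.

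Mrc1 was found in 59.1% of cells in chow (57.1% to 61.01%) and 75.8% at 10 days (74.2% to 77.4%), and Hmox1 in 60.9% of cells in chow (58.9% to 62.8%) and 77.3% at 10 days (75.7% to 78.9%). Marco was found in 19.7% of cells in chow (18.2% to 21.4%) and 28.3% at 10 days (26.7% to 30.1%). Among the lower genes, H2-Ab1 was found in 80.9% of cells in chow (79.3% to 82.4%) and 69.5% at 10 days (67.8% to 71.3%) and Ly6a in 13.1% of cells in chow (11.8% to 14.5%) and 5.396% at 10 days (4.58% to 6.31%). T and NK barcodes, which express Ly6a, had a Ly6a share of 30.8% and 30.9%, which were close to each other. Tfrc was found in 7.45% of cells in chow (6.46% to 8.54%) and 3.49% at 10 days (2.83% to 4.25%). Vcam1 was found in 25.7% of cells in chow (23.97% to 27.4%) and 19.9% at 10 days (18.4% to 21.5%) and, at 3 days, in 57.9%. Clec4f, with 97.4% of cells in chow (96.7% to 98.02%) and 96.9% at 10 days (96.2% to 97.5%), and Cd5l, with 98.9% of cells in chow (98.4% to 99.2%) and 99.3% at 10 days (98.9% to 99.6%), were nearly universal in both libraries, as the rule for choosing cells requires in part.

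**Figure D5:**
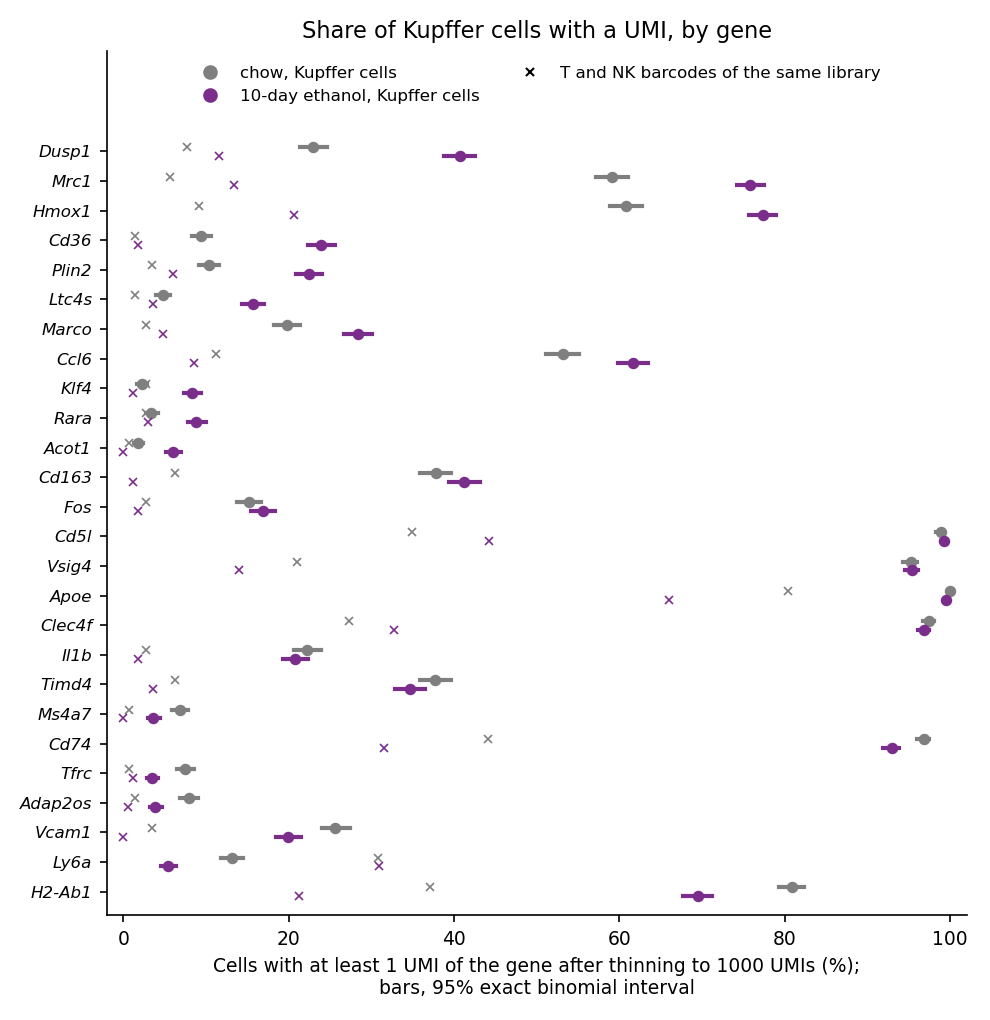
Share of Kupffer cells with at least 1 UMI of a gene after thinning to 1000 UMIs (x, percent) for 26 genes, chow and 10-day ethanol, with exact binomial 95% counting intervals as bars. Crosses give the T and NK barcodes of the same library. Dusp1 has the widest gap above chow, from 22.98% to 40.7%, and H2-Ab1 the widest below it, from 80.9% to 69.5%.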

How the data were processed

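Raw count tables of UMIs per gene and barcode were deposited by the authors for 3 libraries, made with Cell Ranger 2.2.0 on GRCm38/mm10 per the submitters' processing notes. The annotation, counting settings and any strand setting are not given in the sources used here. The chow, 3-day and 10-day libraries held 21650747, 21471782 and 16538895 UMIs. Barcodes were kept with at least 1000 UMIs, 300 genes and at most 10% mitochondrial UMIs, which left 2767, 4061 and 3014. The stated yield was 3000 to 5000 cells. UMIs were summed over Kupffer cells and scaled to CPM. Ratios carry exact conditional binomial 95% intervals, and shares Clopper-Pearson intervals; log2 ratios had 1 CPM added. With 1 library per group there was no test. Genes with a mean of at least 10 CPM were measured. Named genes were the 15 highest and 15 lowest log2 ratios among genes with at least 50 CPM in 1 library and an interval excluding 1, leaving out mitochondrial, ribosomal, provisional, Xist, Y-linked and other cells' marker genes; also the extreme and most abundant members of each list. A few list members are not reported here. Members and lists were chosen with earlier results of these data known. No doublet caller was run; leaving out barcodes with markers of another cell type was an alternative. T and NK barcodes had at least 5 UMIs of T and NK markers. Cells were thinned to 1000 UMIs with a fixed seed. Gene positions follow the GRCm38 annotation provided, and promoters come from RefSeq. The summing and interval steps were tested on simulated data. Python 3.11.15, numpy 2.4.6, scipy 1.17.1, pandas 2.3.3 and matplotlib 3.10.9 were used.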

Additional observations from a re-analysis of the deposited data

Results flagged for a closer look

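Among the genes named by rule, 2 lay above chow at 3 days and below it at 10 days by more than their counting intervals. Ly6a, a surface antigen induced by interferons, had a ratio over chow of 1.11 at 3 days and 0.397 at 10 days. Dcxr, a dicarbonyl and xylulose reductase, had a ratio over chow of 1.22 at 3 days and 0.569 at 10 days. Both ratios of each gene use the same chow library, each group is 1 mouse, and the difference between the time points was not tested.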

How the results depend on the processing

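The number of genes past the limits depended on the gene filter and the scaling. With a mean of at least 50 CPM 125 genes were higher and 66 lower, and with no CPM minimum 596 were higher and 562 lower. The lower count was 274 after thinning cells to 1000 UMIs and 291 with ratios centred on their median. A mitochondrial limit of 5% gave 407 higher and 175 lower genes, of which 192 and 71 were also past the limits with all cells; it left 1098 chow and 384 10-day cells. The class II median log2 ratio was −0.28 with that limit, −0.61 with a Kupffer gene share of at least 2%, −0.39 after thinning and −0.605 when centred. The Fc receptor median turned to 0.017 with the 5% limit, and that of abundant long noncoding RNAs to 0.11 with it and to 0.30 with a mean of at least 50 CPM. The median of haem and iron genes was 0.051 with no CPM minimum. The cause of these differences was not tested. Of 419 alternative ratios of the 30 genes named by rule none changed direction. Moves of over 1.5 times were 2, Ly6a to 0.674 and Pf4 to 0.791, both with the 5% limit. No recomputed interval included 1. The 30 genes were chosen from these same counts for extreme ratios and intervals that exclude 1. That none changed direction or had an interval including 1 was thus largely set by this choice and is no separate support. Changes of the CPM minimum could not alter these ratios or intervals, since they only choose which genes are counted. A larger CPM added to both libraries and the transcript length classes brought no new interval. Subtraction of the median of a gene's transcript length class, an alternative chosen after seeing the data, gave medians of 0.41 for immediate-early, −0.50 for class II and −0.36 for type I interferon genes. Unthinned, the difference in share of cells turned direction for Cd5l, Vsig4, Cd163, Ccl6 and Fos. No paired analysis was possible because each group is 1 library.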

Other observations

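Median ratios rose with transcript length. Lengths were found for 7424 of the 7536 measured genes (98.5%). The median log2 ratio of 10 days over chow was −0.08 for 331 genes with transcripts under 600 bases. It was −0.07 for 1260 genes of 600 to 1000 bases and 0.02 for 1989 genes of 1000 to 2000 bases. Over 4000 bases it was 0.16 for 1281 genes. Among the genes of 600 to 1000 bases 5.71% were lower past the limits, against 0.390% of those over 4000 bases. The shortest class did not follow this, with 3.63% lower and 3.93% higher. The 3-day library, against the same chow library, had medians of −0.06 for 600 to 1000 bases and 0.14 over 4000 bases. Its median under 600 bases was −0.06.

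Cytosolic ribosomal protein genes, whose transcripts are short, had a median log2 ratio of −0.32 over 101 measured members, with 89 below 1 and 10 lower past the limits. Over all measured genes 39.8% were below 1 and 2.35% were lower past the limits. The ribosomal share of Kupffer UMIs was 14.03% in chow and 11.7% at 10 days, beside 13.9% in the 3-day library. Proteasome genes had a median log2 ratio of −0.10 over 31 members and none past the limits. V-ATPase genes, which acidify lysosomes, had 0.19 over 15, and solute carriers 0.10 over 21, also with none past the limits. Among abundant long noncoding RNAs Neat1, the scaffold of paraspeckles, had a ratio of 1.62 and Kcnq1ot1, an antisense transcript whose reads may not be separable by strand, 0.593. Alternative activation genes had 2 of 25 higher (8%), Mrc1 and Klf4. Damage-associated macrophage genes had 2 of 19 higher (10.5%), Lpl and Fabp7, and Tyrobp, a signalling adaptor, lower at 0.63 (5.26%).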
